A study of Mus musculus with 10 samples.

Results

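Alveolar type I cell genes were followed through the differentiation of mouse embryonic stem cells. The set holds 10 genes (Aqp5, Ager, Hopx, Pdpn, Akap5, Cav1, Cav2, Emp2, Clic5 and Rtkn2) of the 18193 genes measured, chosen as known markers of type I cells in the lung. The rule used no measured value, but earlier results of these data were known when the genes were chosen. All 10 were measured, by 20 probe sets annotated to exactly 1 gene symbol. A gene is represented by its brightest probe set, averaged over the 10 arrays, and its other probe sets are given beside it.

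The cells were embryonic stem cells of the C57BL/6 mouse strain that had differentiated for 8, 17 or 24 days. At day 8 there were an untreated control culture and a culture with KGF, and at days 17 and 24 there were a control, a culture with KGF, a culture with DCI and a culture with both. KGF is keratinocyte growth factor, a mesenchymal signal that acts on epithelial cells. DCI is not spelled out in the labels and is taken here as the dexamethasone and cAMP treatment named in the study's title, which places the question in the making of alveolar type II cells, the neighbours of type I cells. Each condition was 1 array of biotin-labelled total RNA on an Affymetrix platform, with no replicate and no sorting named in the labels, so a lower value cannot tell fewer cells of a type from less RNA per cell.

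Type I cells are the very flat cells that cover most of the gas-exchange surface of the lung. Their thin sheets carry water channels and caveolae, they share a basement membrane with the capillaries beneath, and they arise from a common progenitor with the cuboidal, surfactant-making type II cells, which can also turn into them after injury. None of the 10 genes belongs to type I cells alone: podoplanin is also made by mesothelium, lymphatic endothelium and podocytes, caveolins by endothelium, fibroblasts and muscle, and aquaporin 5 by serous glands of the airway, salivary gland and stomach.

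Values are on the log2 scale, where a difference of 1 is 2-fold, and the levels of different genes cannot be set against each other on these arrays. Differences were fitted for each gene with day, KGF and DCI as additive terms over all 10 arrays (limma), and a gene was called at a Benjamini-Hochberg adjusted p under 0.05 over 18193 genes. With 1 array per condition, errors and p-values measure only how far the arrays depart from additive effects. The array medians over all 45101 probe sets lay between 5.23 and 5.31. The day 8 control array differed from the rest in its quality controls, with a 3′ minus 5′ difference for Actb of 1.05 against 0.46 to 0.62 elsewhere. The Actb difference was also higher with DCI in each pair of arrays matched for day and KGF. For the control Dap it was 2.998 with DCI and 2.004 without at day 17, in cultures without KGF. At day 24 these values were 1.49 and 1.74, so the order was reversed. The Dap pairs with KGF went the same way on each day. Whether these quality differences bear on the DCI results was not tested. The cells are labelled as embryonic stem cells. Of 5 pluripotency genes, Pou5f1 read between 3.93 and 6.24, Nanog between 4.48 and 6.85 and Zfp42 between 4.32 and 6.43. Esrrb read between 5.32 and 5.98 and Dppa5a between 6.78 and 9.36. From day 8 to day 17, 1 of them (Dppa5a) rose and 0 fell, but 0 rose without the day 8 control array. From day 17 to day 24, 0 rose and 3 fell.

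The promoters of 4 members are shown first, because 1 pair (Cav1 and Cav2) rose together from day 8 to day 17 and the other pair (Aqp5 and Akap5) moved most, in opposite directions, with DCI. They run from 250 bases before to 50 bases after the start of the gene, 5′ to 3′ along the gene's strand, from RefSeq on the GRCm38.p6 build, where 9 of the 10 members matched with 11 promoters. Capitals mark matches, on either strand, to any of 6 motifs: the GC box GGGCGG, the TATA box TATAAA, the glucocorticoid receptor hexamer AGAACA, the cAMP response element TGACGTCA, its core TGACG, and the TEAD site GGAATG. The GC boxes may overlap each other, and the core is contained in the full cAMP response element. All 4 promoters lie on the plus strand: Aqp5 at chr15:99590778-99591077, Akap5 at chr12:76324641-76324940, Cav1, at the first of its 2 starts, at chr6:17306085-17306384, and Cav2 at chr6:17280935-17281234.
Aqp5: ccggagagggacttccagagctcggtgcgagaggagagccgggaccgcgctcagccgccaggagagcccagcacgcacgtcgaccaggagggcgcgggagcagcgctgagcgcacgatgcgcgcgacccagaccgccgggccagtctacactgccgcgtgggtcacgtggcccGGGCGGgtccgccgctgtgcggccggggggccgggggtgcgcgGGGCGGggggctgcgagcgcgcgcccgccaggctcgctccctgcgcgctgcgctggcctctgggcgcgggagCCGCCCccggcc
Akap5: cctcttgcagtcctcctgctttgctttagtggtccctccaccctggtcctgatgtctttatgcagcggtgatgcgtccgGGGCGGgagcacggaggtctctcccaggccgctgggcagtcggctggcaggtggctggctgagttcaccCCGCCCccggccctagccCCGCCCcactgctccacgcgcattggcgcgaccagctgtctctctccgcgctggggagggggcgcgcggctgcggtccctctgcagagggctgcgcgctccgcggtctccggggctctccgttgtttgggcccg
Cav1: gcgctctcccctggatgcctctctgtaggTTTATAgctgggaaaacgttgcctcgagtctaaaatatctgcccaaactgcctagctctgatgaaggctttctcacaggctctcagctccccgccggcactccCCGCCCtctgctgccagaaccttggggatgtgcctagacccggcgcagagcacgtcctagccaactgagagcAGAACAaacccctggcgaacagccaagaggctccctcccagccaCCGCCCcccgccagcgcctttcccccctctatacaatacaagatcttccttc
Cav2: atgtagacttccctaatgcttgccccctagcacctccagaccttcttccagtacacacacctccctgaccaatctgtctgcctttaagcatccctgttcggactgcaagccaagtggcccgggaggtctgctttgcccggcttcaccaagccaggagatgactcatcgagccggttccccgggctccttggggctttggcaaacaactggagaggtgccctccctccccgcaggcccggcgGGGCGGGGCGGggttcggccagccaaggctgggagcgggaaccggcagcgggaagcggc

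The Aqp5 promoter was the richest of the 4 in G and C, at 79.7%, against 70.7% for Akap5, 64.3% for Cav2, 59.3% for Cav1 and a median of 52.7% over all promoters. GC boxes were found in the promoters of 7 members (Akap5, Aqp5, Cav1, Cav2, Clic5, Emp2 and Pdpn), that is in 7 of 11 promoters against 35.7% of all 32851 promoters. The hexamer AGAACA was found in Cav1 and Clic5 (19.0% of all promoters), TGACG in Pdpn (20.8%) and TATAAA in the first Cav1 promoter (13.6%). Neither TGACGTCA (1.8%) nor GGAATG (14.7%) was found in a member promoter within this window. Cav2 and Cav1 are neighbours on chromosome 6 and run in the same direction, with their starts 25150 bases apart.

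**Figure D1:**
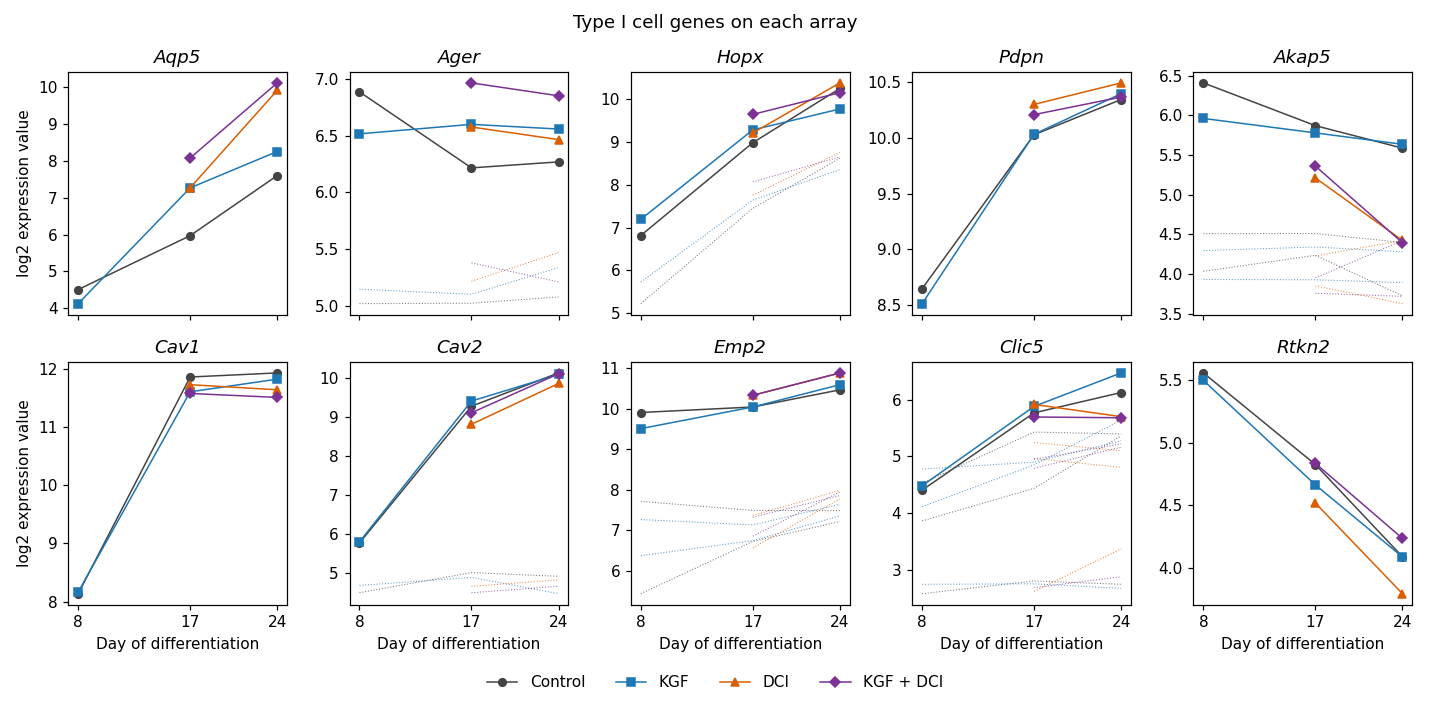
Expression of the 10 type I cell genes (log2 expression value) on each array by day of differentiation. Solid lines with symbols are the main probe set of each gene, dotted lines its other probe sets, and colours the treatments. Cav1 and Cav2 climbed between days 8 and 17, Aqp5 climbed at both steps, Ager stayed between 6.22 and 6.97, and Akap5 was lowest on the 2 day 24 arrays with DCI.

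From day 8 to day 17, 7 of the 10 type I cell genes rose and 1 fell, against 21.4% of all genes higher and 21.0% lower. The caveolin genes Cav1 and Cav2 gained over 11-fold, Hopx and Aqp5 over 4-fold, Clic5 and Pdpn close to 3-fold, and Emp2 1.25-fold, while Rtkn2 fell. The median difference of the members was 1.51, against -0.02 over all genes.

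Caveolae are flask-shaped pits of the plasma membrane, and caveolin 1, encoded by Cav1, is their main structural protein. Cav1 read 8.14 in the day 8 control and 8.16 with KGF. Its day 17 values were 11.86 untreated, 11.61 under KGF, 11.73 under DCI and 11.58 under the combination. Its day 24 values were 11.93 untreated, 11.83 under KGF, 11.64 under DCI and 11.51 under the combination. Every later array thus lay more than 3 log2 units above both day 8 arrays, and the later arrays spanned a narrow band. The rise to day 17 was 3.64 ± 0.08 (SE; adjusted p = 2.67e-10, limma), a 12.5-fold change. No further step was called from day 17 to day 24 (0.03 ± 0.06, 95% interval -0.10 to 0.17, adjusted p = 0.708, limma).

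Caveolin 2, encoded by the neighbouring Cav2, forms hetero-oligomers with caveolin 1 and needs it to reach the cell surface. Cav2 read 5.77 and 5.80 in the day 8 control and KGF cultures. By day 17 the control had 9.27, the KGF culture 9.40, the DCI culture 8.81 and the combined culture 9.10. Day 24 gave 10.12, 10.08, 9.85 and 10.10 in the same order. The days did not overlap, and the level kept rising at each step. Cav2 was higher by 3.49 ± 0.10 at day 17 than at day 8 (adjusted p = 1.97e-09, limma), an 11.2-fold change, and by a further 0.89 ± 0.08 at day 24 (adjusted p = 1.59e-05, limma). The other Cav2 probe set stayed between 4.47 and 5.01 and was called in neither step (0.25 ± 0.18 and -0.04 ± 0.13).

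Of 7 measured genes for the coat and neck proteins of caveolae, 6 rose from day 8 to day 17 and 1, Pacsin3, fell by 0.55. The muscle caveolin Cav3 rose by 3.28 ± 0.34, and the coat proteins Cavin3, Cavin2 and Cavin1 rose by 2.23 ± 0.16, 1.95 ± 0.10 and 1.50 ± 0.12. Without the day 8 control array 5 of the 7 rose and 0 fell. From day 17 to day 24 the list split, with 3 higher and 2 lower, among them Cav3 (1.27 ± 0.25) and Cavin2 (-0.45 ± 0.08).

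Aquaporin 5, encoded by Aqp5, is the water channel of the type I cell's apical membrane. Aqp5 read 4.50 in the day 8 control and 4.12 with KGF. The day 17 cultures gave 5.97 (control), 7.27 (KGF), 7.27 (DCI) and 8.08 (both treatments). The day 24 cultures gave 7.60 (control), 8.26 (KGF), 9.92 (DCI) and 10.12 (both treatments). Among the 10 members Aqp5 had the widest range, 6.00 log2 units, and within each of the later days the control was its lowest array and the culture with both treatments its highest. The days overlapped, since the day 17 culture with both treatments lay above the day 24 control. The fitted rise was 2.05 ± 0.35 from day 8 to day 17 (adjusted p = 0.000724, limma) and 1.83 ± 0.26 from day 17 to day 24 (adjusted p = 0.000412, limma). It was the only member of which both steps exceeded 2-fold.

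Other aquaporins moved in part. Of 11 measured, 3 rose from day 8 to day 17 (Aqp4, the water channel of glia and of some epithelia, by 3.33 ± 0.30, Aqp1, the channel of red cells and endothelium, by 2.91 ± 0.18, and Aqp3, a glycerol and water channel of basal epithelial membranes, by 2.26 ± 0.16) and Mip, the lens channel, fell by 0.45. From day 17 to day 24, 3 rose (Aqp4 by 2.64 ± 0.23, Aqp8 by 1.14 ± 0.28 and Aqp11 by 0.55 ± 0.15) and 0 fell.

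Hopx encodes a small homeodomain protein that does not bind DNA by itself, made by type I cells and by heart and intestinal progenitors. Hopx read 6.81 in the day 8 control and 7.19 with KGF. Its day 17 values were 8.98 untreated, 9.28 under KGF, 9.21 under DCI and 9.65 under the combination, and at day 24 10.25, 9.77, 10.38 and 10.15 in the same order. The 3 days did not overlap, and at day 24 the KGF culture was the lowest. Hopx rose by 2.14 ± 0.18 to day 17 (adjusted p = 4.35e-06, limma) and by 0.86 ± 0.14 to day 24 (adjusted p = 0.00075, limma). The second Hopx probe set gave 2.11 ± 0.16 and 0.87 ± 0.12.

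Podoplanin, the mucin-like membrane protein encoded by Pdpn, was cloned from type I cells as T1-alpha. Pdpn read 8.65 and 8.51 in the day 8 control and KGF cultures. By day 17 the control had 10.03, the KGF culture 10.03, the DCI culture 10.30 and the combined culture 10.21, and at day 24 10.34, 10.39, 10.49 and 10.36 in the same order. The day 8 arrays lay apart from the rest, and the later 2 days lay next to each other without overlap. Pdpn rose by 1.49 ± 0.08 to day 17 (adjusted p = 1.09e-07, limma) and by 0.26 ± 0.06 to day 24 (adjusted p = 0.00601, limma).

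Clic5 encodes a chloride intracellular channel protein that ties the membrane to the actin cytoskeleton through ezrin and its relatives, and it is made in the lung and in kidney podocytes. Clic5 read 4.40 and 4.48 in the day 8 control and KGF cultures. The day 17 cultures gave 5.77 (control), 5.88 (KGF), 5.92 (DCI) and 5.69 (both treatments), and at day 24 6.13, 6.47, 5.70 and 5.68 in the same order. The rise to day 17 was 1.53 ± 0.19 (adjusted p = 7.24e-05, limma), and the later step was not called (0.18 ± 0.14, adjusted p = 0.350, limma). Of its 3 other probe sets, which read from 2.57 to 5.64, the first step was 0.84 ± 0.22 and 0.54 ± 0.18 for those that passed when every probe set was tested, and -0.02 ± 0.18 for the third. In the later step they gave, in the same order, 0.48 ± 0.16, 0.12 ± 0.14 and 0.20 ± 0.13, and only the first of them passed.

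Emp2, a tetraspan membrane protein abundant in type I cells, gave the smallest called rise of this step. It read 9.91 in the day 8 control and 9.51 with KGF. Its day 17 values were 10.04 untreated, 10.04 under KGF, 10.33 under DCI and 10.33 under the combination, and at day 24 10.47, 10.59, 10.88 and 10.88 in the same order. The rise was 0.32 ± 0.10 to day 17 (adjusted p = 0.0264, limma) and 0.52 ± 0.08 to day 24 (adjusted p = 0.000486, limma). The first step rests on the day 8 KGF array: without it the step was 0.10 ± 0.08 (adjusted p = 0.377, limma). It was also lost without the day 17 control (adjusted p = 0.0582) and without the day 17 KGF array (adjusted p = 0.0887), without the mean trend in the variance (adjusted p = 0.0612) and with the mean of its probe sets (adjusted p = 0.0900), all by limma. One other Emp2 probe set gave 0.68 ± 0.22 and the remaining one -0.26 ± 0.15 for this step, and both were higher at day 24 than at day 17 (0.85 ± 0.16 and 0.41 ± 0.11).

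Rtkn2 was the member that fell at both steps. It read 5.56 and 5.50 in the day 8 control and KGF cultures. By day 17 the control had 4.83, the KGF culture 4.66, the DCI culture 4.52 and the combined culture 4.84, and at day 24 4.09, 4.09, 3.79 and 4.23 in the same order. The days did not overlap. The differences were -0.78 ± 0.16 to day 17 (adjusted p = 0.00227, limma) and -0.66 ± 0.12 to day 24 (adjusted p = 0.00169, limma).

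Akap5 encodes an anchoring protein that holds protein kinase A, protein kinase C and calcineurin at the membrane. It read 6.41 and 5.96 in the day 8 control and KGF cultures. The day 17 cultures gave 5.87 (control), 5.78 (KGF), 5.21 (DCI) and 5.36 (both treatments), and at day 24 5.59, 5.63, 4.42 and 4.39 in the same order. No step was called to day 17 (-0.19 ± 0.20, adjusted p = 0.498, limma). The fall to day 24 was -0.55 ± 0.15 (adjusted p = 0.0176, limma), and it was lost without any 1 of the 4 arrays with DCI, at adjusted p from 0.0544 to 0.0678, and with the mean of its probe sets (adjusted p = 0.0622). Between matched arrays it was -0.28 (control), -0.14 (KGF), -0.79 (DCI) and -0.97 (both treatments). The 2 other Akap5 probe sets gave 0.12 ± 0.12 and -0.20 ± 0.11 for this step and were not called.

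Ager encodes RAGE, the receptor for advanced glycation end products, which in the healthy lung lies on the basal membrane of type I cells. Of the 10 members it was the flattest. Ager read 6.89 in the day 8 control and 6.52 with KGF. Its day 17 values were 6.22 untreated, 6.60 under KGF, 6.58 under DCI and 6.97 under the combination, and at day 24 6.27, 6.56, 6.47 and 6.85 in the same order. All of its values lay within 0.75 log2 units, and the days overlapped. Neither step was called over the 10 arrays (-0.26 ± 0.17, adjusted p = 0.258, and -0.05 ± 0.13, adjusted p = 0.778, limma). Without the day 8 KGF array the first step was -0.63 ± 0.14 (adjusted p = 0.00674, limma), and without the day 8 control array it turned positive (0.10) and was not called. The other Ager probe set read from 5.02 to 5.47 and was called in no comparison.

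RAGE binds S100 proteins, and of 8 measured genes for its ligands and signalling, 4 rose from day 8 to day 17 and 0 fell. The calcium-binding proteins S100a6 and S100a4 rose by 3.95 ± 0.10 and 3.86 ± 0.29, S100a1 by 1.88 ± 0.10, and App, the amyloid precursor, by 0.79 ± 0.06.

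From day 17 to day 24, 5 of the 10 type I cell genes rose (Aqp5, Cav2, Hopx, Emp2 and Pdpn) and 2 fell (Akap5 and Rtkn2), against 14.8% of all genes higher and 22.5% lower. Their median difference was 0.22, against -0.01 over all genes. Of these 7, Aqp5 alone passed 2-fold.

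**Figure D2:**
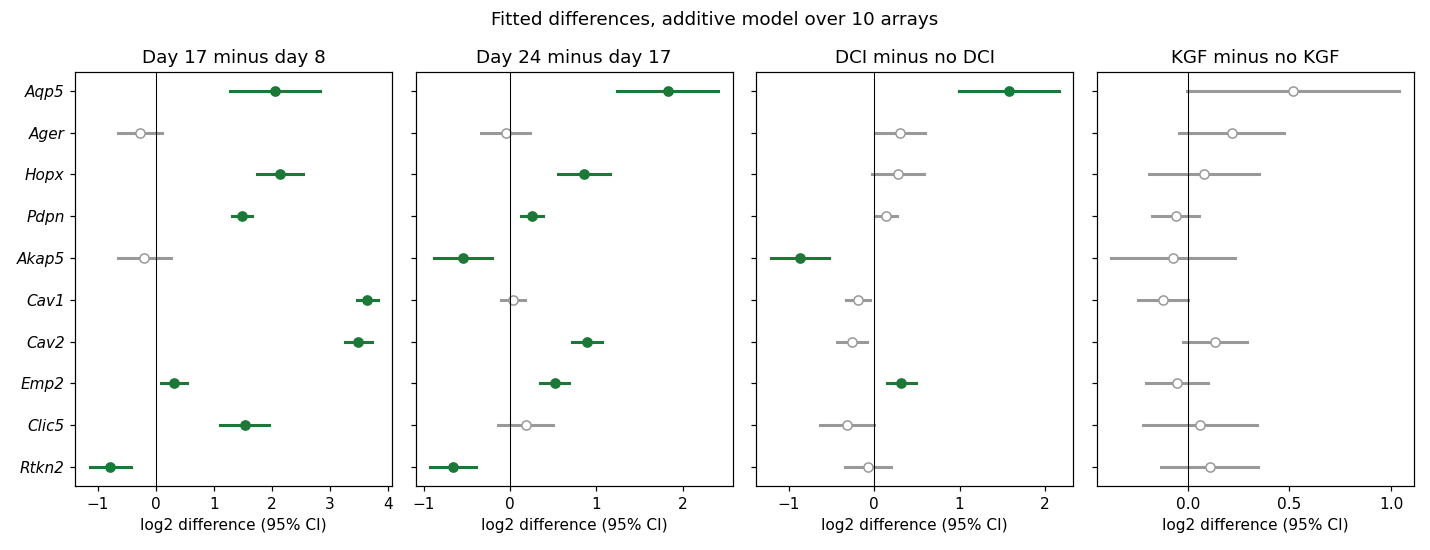
Fitted log2 differences of the 10 genes with 95% confidence intervals, for the 2 steps in time, for DCI and for KGF (additive model over 10 arrays). Filled green points passed an adjusted p of 0.05 and open grey points did not: 8 genes passed from day 8 to day 17, 7 from day 17 to day 24, 3 for DCI and 0 for KGF.

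A wider list of 20 genes known from type I cells, of which 19 were measured, moved upward with time. From day 8 to day 17, 13 rose and 0 fell, with a median of 1.09 (11 and 0 without the day 8 control array). Krt7, a keratin of simple epithelia that mesothelium shares, rose by 3.27 ± 0.11, the axon guidance ligand Sema3e by 1.94 ± 0.14, the tetraspanin Tspan8 by 1.91 ± 0.15, and the metalloproteinase inhibitor Timp3 by 1.91 ± 0.11. From day 17 to day 24, 12 rose and 0 fell, with a median of 0.49. The laminin chain Lama3 rose by 1.53 ± 0.25, the activin inhibitor Fstl3 by 1.47 ± 0.14, the proteoglycan Spock2 by 1.31 ± 0.18 and the vascular growth factor Vegfa by 0.91 ± 0.06.

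Genes known to set type I identity did not move as a block. Of 10 measured, 3 rose and 6 fell from day 8 to day 17: the epithelial factor Klf5 rose by 2.95 ± 0.11 and Wwtr1, which encodes the coactivator TAZ, by 1.39 ± 0.07, while Tead4, a DNA-binding partner of TAZ, fell by 1.09 and Foxa2, a factor of foregut endoderm, by 0.83. Nkx2-1, the lung and thyroid regulator, looked up after its values had been seen, read between 4.45 and 5.00 on all arrays and was called in no comparison. Yap1, which encodes YAP, was among the regulators that fell from day 8 to day 17, by 0.64. Of 8 genes listed as targets of YAP and TAZ, 5 rose and 2 fell in this step. Lats2 rose by 1.17 ± 0.15 and Ccn2 by 0.82 ± 0.10, while Ajuba and Tead1 each fell by 0.53. Tead1 is counted in the regulator list as well.

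Markers of other cell types that share these genes moved over the same days, and their part in the members' rises was not tested. All 5 mesothelial markers rose from day 8 to day 17, Msln by 5.10 ± 0.25, and their mean level went from 7.46 to 7.54 at day 8 to between 9.63 and 10.36 later. Of 6 stromal fibroblast markers, a list added after the members' values had been seen, 5 rose and 1 fell, and their mean went from 10.79 to 10.82 at day 8 to between 12.24 and 12.69 later. Of 10 general epithelial markers 8 rose and 2 fell in the first step, and 8 rose and 0 fell in the second. Of 10 endothelial markers 0 rose and 4 fell to day 17, and 6 were not called. Of 5 lymphatic endothelial markers, a source of podoplanin, 0 rose and 3 fell, and of 3 measured podocyte markers 1 rose and 1 fell. Without the day 8 control array these counts were 0 and 1 for the lymphatic list and 0 and 1 for the podocyte list. All 7 macrophage markers rose from a mean of 4.82 to 4.99 at day 8 to between 7.04 and 9.50 later. Of 5 smooth muscle markers 1 rose to day 17 and 1 fell, and of 5 cardiomyocyte markers 2 rose and 1 fell. Of 4 measured adipocyte markers 2 rose in that step and 0 fell, Fabp4 by 8.12 ± 0.08.

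**Figure D3:**
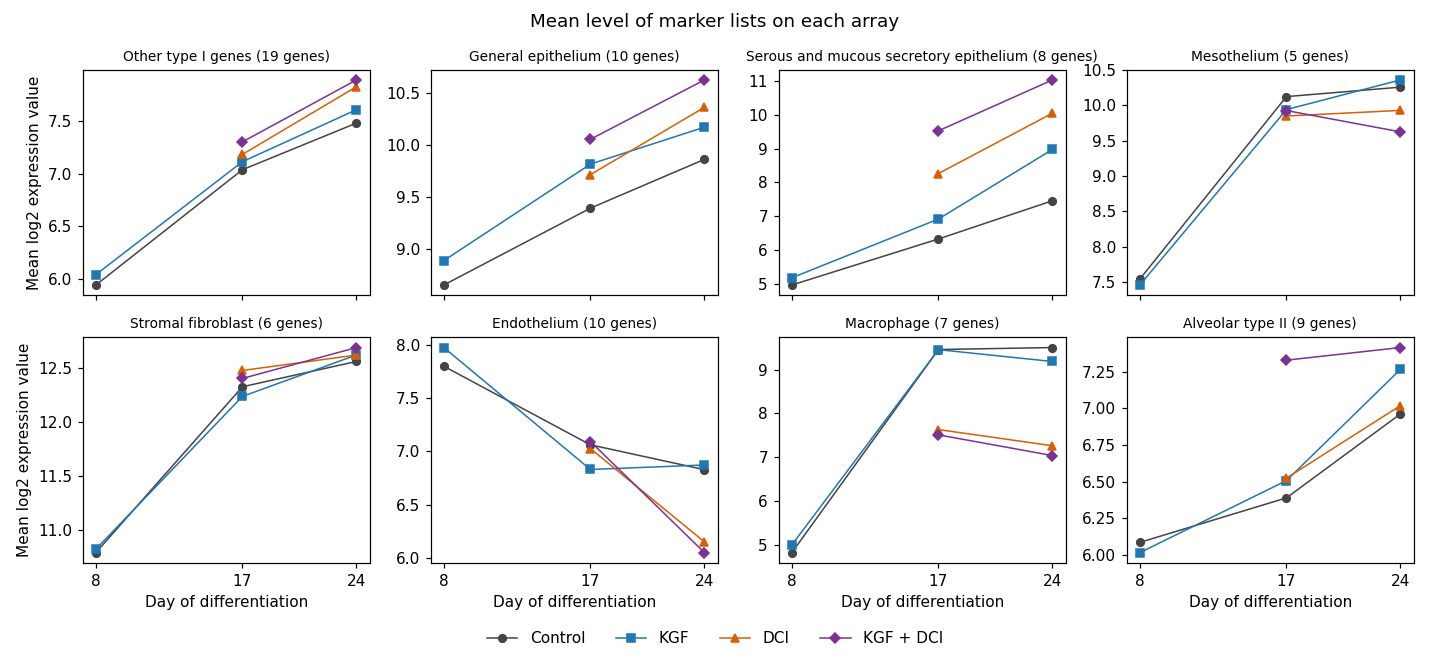
Mean log2 expression value of 8 marker lists on each array by day of differentiation, with the number of genes in each list. Mesothelial and stromal fibroblast lists were higher at days 17 and 24 than at day 8 and the endothelial list was lower. The secretory epithelial list was highest with both treatments, at 9.52 on day 17 and 11.03 on day 24.

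With DCI, 2 of the 10 type I cell genes rose and 1 fell, against 7.27% of all genes higher and 8.09% lower. Aqp5 rose 2.98-fold, Emp2 rose 1.25-fold and Akap5 fell 1.83-fold. The median DCI difference of the members was 0.04, against -0.01 over all genes.

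Aqp5 was higher with DCI in all 4 matched pairs of arrays, by 0.81 to 2.32. At day 17 the arrays without DCI, 5.97 and 7.27, lay below those with DCI, 7.27 and 8.08, but the KGF and DCI arrays differed by less than 0.01, while at day 24 the 2 groups were apart (7.60 and 8.26 against 9.92 and 10.12). The fitted difference was 1.57 ± 0.26 (95% interval 0.99 to 2.16, adjusted p = 0.00253, limma). Among other aquaporins, 2 of 11 rose with DCI, Aqp8 by 1.33 ± 0.28 and Aqp3 by 0.52 ± 0.12, and 0 fell.

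Serous and mucous secretory epithelium also makes aquaporin 5. Of 8 markers of both kinds, 6 rose with DCI and 0 fell, the stomach peptides Gkn1 and Tff1 by 3.85 and 3.75. The others that rose were Muc5b, Agr2, Scgb1a1 and Muc5ac. Bpifa1 and Ltf were not called. Bpifa1 read higher with DCI in each matched pair, while Ltf read 11.68 in the day 24 control and 11.67 with DCI. The mean of the 8 markers read 4.96 to 5.18 at day 8, 6.33 to 8.97 on the later arrays without DCI and 8.26 to 11.03 with it. Of 10 general epithelial markers 6 rose and 0 fell. What part these cells have in the Aqp5 values was not tested. Of 9 measured type II markers 1 rose and 2 fell with DCI.

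Akap5 was lower with DCI in all 4 pairs, by 0.42 to 1.24. The arrays with and without DCI did not overlap on either day (5.21 and 5.36 against 5.78 and 5.87 at day 17, and 4.39 and 4.42 against 5.59 and 5.63 at day 24). The fitted difference was -0.87 ± 0.15 (95% interval -1.21 to -0.53, adjusted p = 0.00351, limma). The 2 other Akap5 probe sets, which read from 3.63 to 4.51, gave -0.13 ± 0.12 and -0.21 ± 0.11 and were not called. Of 11 measured partners in the Akap5 complex, 2 rose with DCI and 0 fell: Prkar2b, a regulatory subunit of protein kinase A, by 1.02 ± 0.09, and Prkca, a protein kinase C, by 0.36 ± 0.09.

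Emp2 was higher with DCI in all 4 pairs, by 0.29 to 0.42, and the arrays with and without DCI did not overlap within a day. The fitted difference was 0.32 ± 0.08 (adjusted p = 0.0175, limma). It was lost without the day 24 control, DCI or combined array (adjusted p from 0.0549 to 0.0801) and with the mean of its probe sets (adjusted p = 0.0606). The 2 other Emp2 probe sets gave 0.27 ± 0.16 and 0.19 ± 0.11.

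The other members were not called for DCI over 10 arrays. Ager was higher in all 4 pairs, by 0.20 to 0.37, with a fitted 0.30 ± 0.13 (adjusted p = 0.157). Its other probe set was higher in 3 pairs and lower by 0.13 in the day 24 pair with KGF (0.18 ± 0.11). On the 8 arrays of days 17 and 24 alone the difference of the main Ager probe set was 0.30 ± 0.08 and passed (adjusted p = 0.0337). Hopx was likewise higher in all 4 pairs (0.28 ± 0.14, adjusted p = 0.227, limma) and Cav1 lower in all 4 (-0.19 ± 0.06, adjusted p = 0.0656, limma). Cav2 gave -0.25 ± 0.08 (adjusted p = 0.0551), Clic5 -0.31 ± 0.14 (adjusted p = 0.183), Pdpn 0.14 ± 0.06 (adjusted p = 0.142) and Rtkn2 -0.07 ± 0.12 (adjusted p = 0.775), all by limma. Cav1 passed without the day 17 KGF array (-0.25 ± 0.06, adjusted p = 0.0213) and after a second quantile normalisation (-0.21 ± 0.06, adjusted p = 0.0397). Cav2 passed without the day 24 KGF array (-0.33 ± 0.08, adjusted p = 0.0218) and without the day 24 combined array (-0.31 ± 0.08, adjusted p = 0.0402).

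Among the RAGE ligand genes 3 of 8 rose with DCI (S100a8 by 1.58 ± 0.16, S100a1 by 0.36 ± 0.08 and S100b by 0.33 ± 0.10) and 0 fell. Of 7 caveolar coat genes Cavin2 rose, by 0.26 ± 0.08, and 0 fell. A list of 7 genes held membrane partners of podoplanin (Cd44, Cd9 and Clec1b) and linkers to the cytoskeleton (Ezr, Rdx, Msn and Slc9a3r1). Of the partners, the hyaluronan receptor Cd44 and the tetraspanin Cd9 rose by 0.88 ± 0.13 and 0.20 ± 0.06. Of the linkers, the scaffold Slc9a3r1 fell by 0.47, ezrin (Ezr) by 0.29 and moesin (Msn) by 0.28. Clec1b and Rdx were not called. Of 10 paralogs of the members, the anchoring protein Akap12 rose by 0.79 ± 0.08, in the direction opposite to Akap5, and Pmp22 and Clic1 fell by 0.27 and 0.18.

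Of the 19 other type I genes, 5 rose with DCI and 2 fell. The junction protein gene Cldn18 rose by 1.70 ± 0.22 and read 4.07 to 4.12 at day 8, 5.36 to 6.00 on the later arrays without DCI and 6.94 to 7.99 with it. Ndnf, a secreted factor, rose by 0.82 ± 0.19, Tspan8 by 0.75 ± 0.11, Lmo7, an actin-linked junction protein, by 0.74 ± 0.12, and Vegfa by 0.53 ± 0.06. Timp3 fell by 0.51 and the growth factor binding protein Igfbp2 by 0.30. Cldn18 also has a stomach form, and which form its probe set reads was not tested. Of the 8 genes listed as YAP and TAZ targets 0 rose and 3 fell, Ccn2 by 0.93, Ajuba by 0.38 and Amotl2 by 0.23. All 6 glucocorticoid response genes rose, with a median of 1.37. Of 5 mesothelial markers 3 fell with DCI and 0 rose, and of 7 macrophage markers 6 fell and 0 rose. The markers not called did not share the fall. Cd14 read higher with DCI in each matched pair. Wt1 did so in all but the day 24 pair with KGF, and Msln in all but the day 17 pair without KGF. Whether these cell types bear on Cav1 or Pdpn was not tested.

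Whether DCI acted differently at the 2 days was asked with an interaction over the 8 later arrays. No member was called, against 0.533% of all genes higher and 1.97% lower. Without adjustment, 2912 of the 18193 genes and 4 members (Aqp5, Akap5, Cav1 and Clic5) had a p under 0.05. The DCI difference of Aqp5 was 1.06 at day 17 and 2.09 at day 24, and the interaction of 1.04 ± 0.28 missed the threshold (95% interval 0.42 to 1.65, adjusted p = 0.0929, limma). It passed without the day 17 control (1.41 ± 0.21, adjusted p = 0.00912) and without the day 24 combined array (1.40 ± 0.24, adjusted p = 0.0403). Akap5 stood at -0.54 and -1.20 (interaction -0.66 ± 0.20, adjusted p = 0.140, limma) and Clic5 at -0.02 and -0.61 (interaction -0.59 ± 0.22, adjusted p = 0.230, limma). The interactions of the other Akap5 probe sets had the opposite sign (0.42 ± 0.22 and 0.14 ± 0.23). Those of the other Clic5 probe sets were split, at -0.75 ± 0.25, -0.11 ± 0.25 and 0.54 ± 0.21. None of these probe sets was called. Of the other type I genes, Lama3 (1.34 ± 0.25) and Ndnf (1.08 ± 0.13) had a larger DCI difference at day 24, and 5 of 10 endothelial markers a lower one, among them Pecam1 (-1.63 ± 0.31) and Cdh5 (-1.57 ± 0.23).

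**Figure D4:**
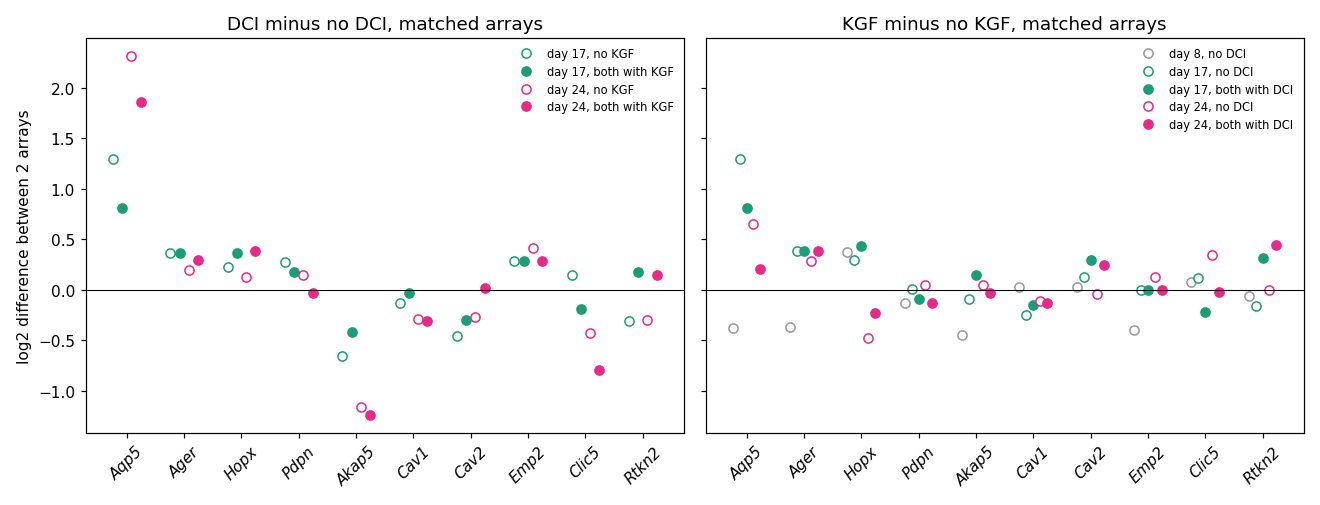
Log2 difference between 2 arrays that differ only in DCI (left) or only in KGF (right), for the main probe set of each gene. Colours give the day, and filled points are pairs in which both arrays had the other treatment. With DCI all 4 Aqp5 points lie above 0 and all 4 Akap5 points below it, and with KGF the day 8 points of Aqp5 (-0.38) and Ager (-0.37) lie below the later ones.

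For KGF no member was called, against 0.00550% of all genes in either direction. Without adjustment, 1466 genes and 1 member, Cav1 (-0.12 ± 0.06), had a p under 0.05. The largest KGF difference among the members was that of Aqp5, 0.52 ± 0.24 (95% interval -0.0058 to 1.04, adjusted p = 0.623, limma). KGF went with a lower Aqp5 value at day 8, by 0.38, and with higher values in the 4 later pairs, by 0.20 to 1.30, the widest of them at day 17 without DCI. The main Ager probe set had the same order, -0.37 at day 8 and 0.29 to 0.39 in the later pairs. The other Ager probe set did not, with 0.13 at day 8 and -0.26 to 0.26 in the later pairs. On the 8 later arrays alone, where 0.357% of all genes were called, Aqp5 gave 0.74 ± 0.23 (adjusted p = 0.360) and Ager 0.36 ± 0.08 (adjusted p = 0.141), and again no member was called. Hopx was higher with KGF in 3 of 5 pairs, all at days 8 and 17, and lower in both day 24 pairs (-0.48 and -0.23). In the lists of other type I genes, regulators, caveolar proteins and aquaporins 0 genes were called for KGF.

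The study's title names a joint effect of the treatments, and the KGF by DCI interaction over the 8 later arrays asks whether the combination departs from the sum of both. It called 0 members and 0% of all genes, with 267 genes and 0 members at an unadjusted p under 0.05. Aqp5 gave -0.47 ± 0.46 (95% interval -1.53 to 0.59, adjusted p = 1.00, limma), and Rtkn2 0.46 ± 0.20. The 95% intervals, which are not adjusted for the number of genes, were narrowest for Emp2 (-0.30 to 0.17) and widest for Aqp5, so that departures within them cannot be told from 0.

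Set against the control of the same day, the culture with both treatments had Aqp5 higher by 2.11 at day 17 and 2.52 at day 24, and Akap5 lower by 0.51 and 1.19. These are differences of single arrays with no replicate check. At day 17 Aqp5 alone passed 2-fold, where 1.76% of all genes were that much higher and 1.17% lower. At day 24 Aqp5 and Akap5 passed, against 2.20% higher and 2.56% lower. Ager stood 0.75 and 0.58 higher, Emp2 0.29 and 0.41 higher, and Cav1 0.28 and 0.42 lower at days 17 and 24. The remaining 5 (Hopx, Pdpn, Cav2, Clic5 and Rtkn2) lay between -0.45 and 0.66.

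The members did not move as 1 group across the arrays. Over the 10 arrays the Pearson correlation of Cav1 with Cav2 was 0.96 and that of Hopx with Pdpn 0.96, but on the 8 later arrays these were 0.14 and 0.82. Aqp5 went with Emp2 (0.95 over 10 arrays and 0.93 over 8) and against Akap5 (-0.89 and -0.90). Cav1 against Aqp5 was 0.75 over 10 arrays and -0.59 over 8. These values describe arrays that share the day step, and no test was made of them.

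For the 9 members whose values spanned at least 1 log2 unit, the genes of most similar course were found among 6197 genes with that span; Ager did not reach it. Aqp5 was nearest to the adhesion protein gene Ceacam1 (r = 0.99), Qsox1 and Krtcap3, and Hopx to Mal (r = 1.00), Capg and Gsto1. Pdpn was nearest to Nbl1, Olr1 and Cebpb, Cav2 to Htra1, Foxs1 and Dynlt3, and Clic5 to Vgll3, Cnksr3 and Igfbp3. Cav1 was nearest to Ogn, Col1a2 and Mgst1, the first 2 genes of connective tissue matrix, with r of at least 0.998 over 10 arrays but 0.91, 0.74 and 0.75 over the 8 later ones. Akap5 was nearest to Cmtm7, Stard9 and Nbea, Emp2 to Snhg6, Cmc1 and Snhg12, and Rtkn2 to the DNA repair gene Rad54l (r = 0.99), Sart1 and Fanci. Such likeness was common: from 19 genes (Akap5) to 528 genes (Cav2) had an r over 0.95 with a member.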

How the data were processed

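The authors deposited log2 expression values of 45101 probe sets from 10 arrays, which the submitters' processing notes trace to RMA and the labels to Bioconductor. RMA removes background, gives the arrays a common distribution and summarises probes, so differences are relative to the other genes and those of dim genes are compressed. Neither its version nor whether all arrays went through it jointly is given in the sources used here. Symbols come from the platform annotation: 34945 probe sets had 1 symbol and stood for 18193 genes, each taken by its probe set of highest mean, with no filter.

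Arrays were grouped by day and treatment from the labels, 1 per group. Limma 3.58.1 (R 4.3.3) fitted day, KGF and DCI over 10 arrays (5 residual degrees of freedom), and each interaction over the 8 arrays of days 17 and 24 (3), with eBayes and a mean trend. All adjusted p-values are limma's, by Benjamini-Hochberg over all genes, and errors are its standard errors. Precision is limited by the number of arrays. The fits were tested on simulated data. The members and gene lists were chosen with earlier results of these data known. Named genes were the members, the 3 genes most correlated with each member of range 1 or more, and up to 4 genes per list by size of difference; where a list had up to 7 called genes, others were named after their values were seen. Alternatives changed the variance model, a filter, the probe set choice, normalisation, the threshold and the arrays. Figures used matplotlib 3.10.9.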

Additional observations from a re-analysis of the deposited data

How the results depend on the processing

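No called difference reversed direction under the alternatives run. Differences that were not called could change sign. For KGF, Hopx stood at 0.08 over 10 arrays and at -0.35 on the 4 arrays of day 24, and on the 8 later arrays Emp2 went from -0.05 to 0.03 and Akap5 from -0.07 to 0.02. The KGF by DCI value of Aqp5 turned positive without the day 17 KGF or the day 24 DCI array. The count of members called for DCI went from 3 to 5 at an adjusted p under 0.10 and to 1 with a 2-fold size in addition, and lay between 2 and 4 when 1 array was left out. With a second quantile normalisation the DCI count was 4, with Cav1 added, and with the mean of probe sets it was 2. The count from day 17 to day 24 went from 7 to 1 with a 2-fold size in addition. For DCI by day it went from 0 to 1 (Aqp5) at an adjusted p under 0.10, and lay between 0 and 1 when 1 array was left out. The number of members at least 2-fold apart between both treatments and control at day 24 went from 2 to 1 with the mean of probe sets, where Akap5 stood at -0.39. Removing the 40% of genes with the lowest mean took dim members out of the fit, among them Akap5, Clic5 and Rtkn2. The members called for DCI were then Aqp5, Cav2 and Emp2. The count then went from 8 to 6 for day 8 to day 17, and from 7 to 5 for day 17 to day 24. The matched pairs shown here join arrays of different conditions. No pairing by replicate culture was possible because each condition is 1 array and the labels carry no replicate numbers. With 1 array per condition, an effect that differs between cultures of 1 condition cannot be seen.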
